A study of Rattus norvegicus with 35 samples.

Results

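The 6 microRNAs miR-103, miR-107, miR-15b, miR-16, miR-195 and miR-497, whose seeds overlap, were followed in the injured rat spinal cord. The last 4 form the miR-15/16 family. The array lists them as hsa-miR-103/mmu-miR-103/rno-miR-103, mmu-miR-107/rno-miR-107, rno-miR-15b, rno-miR-16, rno-miR-195 and rno-miR-497. They were taken by name, as the array names that hold the rat form of one of these 6 guide strands, and they made up 6 of the 1766 microRNA names on the array and of the 349 names with a rat microRNA. The array was the Exiqon miRCURY LNA platform, which reads microRNAs by hybridization to locked nucleic acid probes, and each of the 35 arrays held RNA from the T8 cord segment of 1 adult female Wistar rat. Unoperated rats formed the control group (CT), rats with laminectomy alone at T8 formed the sham groups after 1, 3 and 7 days (SH1, SH3, SH7), and rats with laminectomy and a contusion of 200 kdyne formed the injured groups after the same days (LS1, LS3, LS7), with 5 rats in each of the 7 groups. The sham and injured rats share anaesthesia and the opening of the vertebra, whereas CT rats had no surgery. The whole segment was extracted, so that fewer cells of a type and less of a microRNA per cell cannot be told apart.

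A microRNA guides its silencing complex to messenger RNAs through the seed, bases 2 to 8 of the mature strand, and microRNAs with the same seed can share targets. miR-103 and miR-107 lie within genes of pantothenate kinases, the first enzymes of coenzyme A synthesis, and in human and mouse cells they are known to repress Dicer, the enzyme that cuts microRNA precursors. miR-15b, miR-16, miR-195 and miR-497 are known as brakes on the cell cycle, through cyclins D and E, and as repressors of the survival factor Bcl2. The 6 mature sequences below, from RefSeq on build GRCr8, are shown to make plain which seeds are identical. Capitals mark the seed.
miR-103: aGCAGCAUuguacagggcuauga
miR-107: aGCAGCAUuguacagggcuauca
miR-15b: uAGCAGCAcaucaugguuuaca
miR-16: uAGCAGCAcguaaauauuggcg
miR-195: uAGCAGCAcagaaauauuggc
miR-497: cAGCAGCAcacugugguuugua

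The seed of miR-103 and miR-107 is GCAGCAU and that of the other 4 is AGCAGCA, so that both hold GCAGCA, shifted by 1 base. GCAGCA stood within the first 8 bases of 7 of 692 different rat mature sequences, 1.01 percent, and 6 of these 7 were the members. The other was miR-322, the rat form of human miR-424. miR-103 and miR-107 differ at 1 of 23 bases, G22C counted from the 5′ end, and miR-16 and miR-195 at 2 of the 21 bases they share, G10A and U11G, and how far the probes of these pairs share signal was not tested.

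The members come from 4 places with a mature entry. miR-103 lies at chr3:138963278-138963300 on the plus strand within the bounds of Pank2 (a further precursor, Mir103a1, lies within Pank3 on chromosome 10), and miR-107 at chr1:241750431-241750453 on the minus strand within Pank1. miR-15b (chr2:155555197-155555218) and miR-16 (chr2:155555343-155555364) start 146 bases apart on the plus strand within Smc4, a condensin subunit that compacts chromosomes in dividing cells. miR-497 (chr10:55450172-55450193) and miR-195 (chr10:55450509-55450529) start 337 bases apart on the plus strand, within no protein-coding gene.

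Values are green-channel signals after background subtraction and variance stabilizing normalization (VSN), on a log2 scale. A microRNA was called detected on an array when most of its spots stood above the negative controls, and 816 names were detected in at least 3 rats of a group. Most LS7 arrays stood apart. The number of detected names in LS7 was between 270 and 922 (567 to 771 in SH7). The median value of the 199 names detected on all 35 arrays, called the array median below, was between 7.43 and 9.62 in LS7 (9.98 to 10.12 in SH7). LS7 replicate 1, at 9.62, lay within the ranges of CT (9.52 to 10.07), SH1 (9.43 to 10.15) and SH3 (9.46 to 10.19). The LS3 replicate 2 array lay with the other LS7 arrays, at 8.10. Scanner gain was 600 to 720 in LS7 and 550 to 610 in SH7. The detection limit was 70.3 to 325.5 units in LS7 and 27.3 to 95.1 units in SH7. In LS7 against SH7 the median change of the 816 detected names was -1.0 and that of the 199 names was -1.53, while a scaling that sets the arrays equal at the 75th percentile of the 199 names gave 1.34 and 0.38. The neuronal microRNAs miR-124 and miR-9 and the oligodendrocyte miR-219-5p and miR-338 were detected on all 35 arrays, neuronal miR-128 on 33 and oligodendrocyte miR-219-2-3p on 34, with the missing ones in LS7.

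At day 7 the VSN values of all 5 members that could be tested were lower in LS7 than in SH7, and under other scalings the direction of 4 of them turned. In miR-103 the 5 SH7 values were 9.51, 9.96, 9.62, 10.23 and 10.14, and the 5 LS7 values were 9.26, 8.0, 7.87, 7.76 and 6.80. Every LS7 rat lay below every SH7 rat. The change of -1.95 ± 0.40 (SE, n = 5 and 5), 3.87 times lower, passed the test (limma with Benjamini-Hochberg adjustment over the 719 names tested, adjusted p = 0.000967). miR-107, its near copy, had SH7 values of 8.44, 8.81, 8.77, 9.43 and 9.33 and LS7 values of 8.06, 6.04, 7.13, 7.32 and 6.07. The groups did not overlap here either, and the change was -2.03 ± 0.40 (adjusted p = 0.000826 by limma), with the microRNA detected in 3 of the 5 LS7 rats and in all 5 rats of every other group. That count also depends on the limit of each array. In LS7 replicate 5 the miR-107 signal of 297.5 units lay under the limit of 325.5. It was above the signals of LS7 replicates 1, 3 and 4 (249.5, 206.5 and 269), which counted as detected.

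The 3 tested members of the miR-15/16 family were lower by less. In miR-195 the SH7 values were 9.71, 10.27, 10.39, 10.54 and 10.30 and the LS7 values 9.57, 8.93, 9.24, 8.23 and 7.41, with no overlap and a change of -1.57 ± 0.39 (limma, adjusted p = 0.00295). The miR-16 values, which were between 11.94 and 12.89 in SH7 with a median of 12.29 and between 10.24 and 11.82 in LS7 with a median of 10.94, did not overlap and changed by -1.31 ± 0.35 (limma, adjusted p = 0.00405). In miR-15b the SH7 values were 10.35, 9.52, 9.68, 9.54 and 9.57 and the LS7 values 9.91, 8.74, 8.36, 8.82 and 6.73. These groups overlapped, since LS7 replicate 1 lay above 4 of the 5 sham rats, and the change was -1.22 ± 0.46 (limma, adjusted p = 0.0281), which no longer passed without LS7 replicate 3 (adjusted p = 0.0573), LS7 replicate 5 (0.0646) or SH7 replicate 1 (0.0727).

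These 5 of 5 calls stand beside 420 of all 719 tested names that were called lower in the same comparison (58.4 percent), and the 4 members whose groups did not overlap beside 36.6 percent of all names. The median change of the 5 members was -1.57, against -1.0 over all detected names. Measured from that median, miR-103 changed by -0.95 and miR-107 by -1.03, miR-195 by -0.57, miR-16 by -0.31 and miR-15b by -0.22. Measured from the median of -1.53 of the 199 names, miR-103 (-0.42) and miR-107 (-0.50) still lay below it, miR-195 (-0.03) lay close to it, and miR-16 (0.22) and miR-15b (0.31) lay above it, so that the direction of the last 2 turned. With the authors' deposited values miR-15b was not called (-0.66 ± 0.36, adjusted p = 0.139 by limma) and the other 4 were. After normexp and quantile normalization miR-103 (-0.50 ± 0.15, adjusted p = 0.029 by limma) and miR-107 (-0.81 ± 0.27, adjusted p = 0.0391) were still called lower, while miR-195 (0.01), miR-15b (0.18) and miR-16 (0.29) had turned and were not called. With the 75th percentile of the commonly detected names set equal, none of the 5 was called and their changes ran from -0.04 in miR-103 to 0.64 in miR-15b. Under all 4 scalings miR-103 and miR-107 had lower changes than miR-195, miR-15b and miR-16. Differences between members on an array depend little on the scaling, so these 4 are not separate checks of that order. On the 1 scan day with both groups (LS7 replicate 5, SH7 replicate 3) the order was not seen. The changes there were -2.82 in miR-103, -2.70 in miR-107, -2.98 in miR-195, -2.95 in miR-15b and -2.65 in miR-16.

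**Figure D1:**
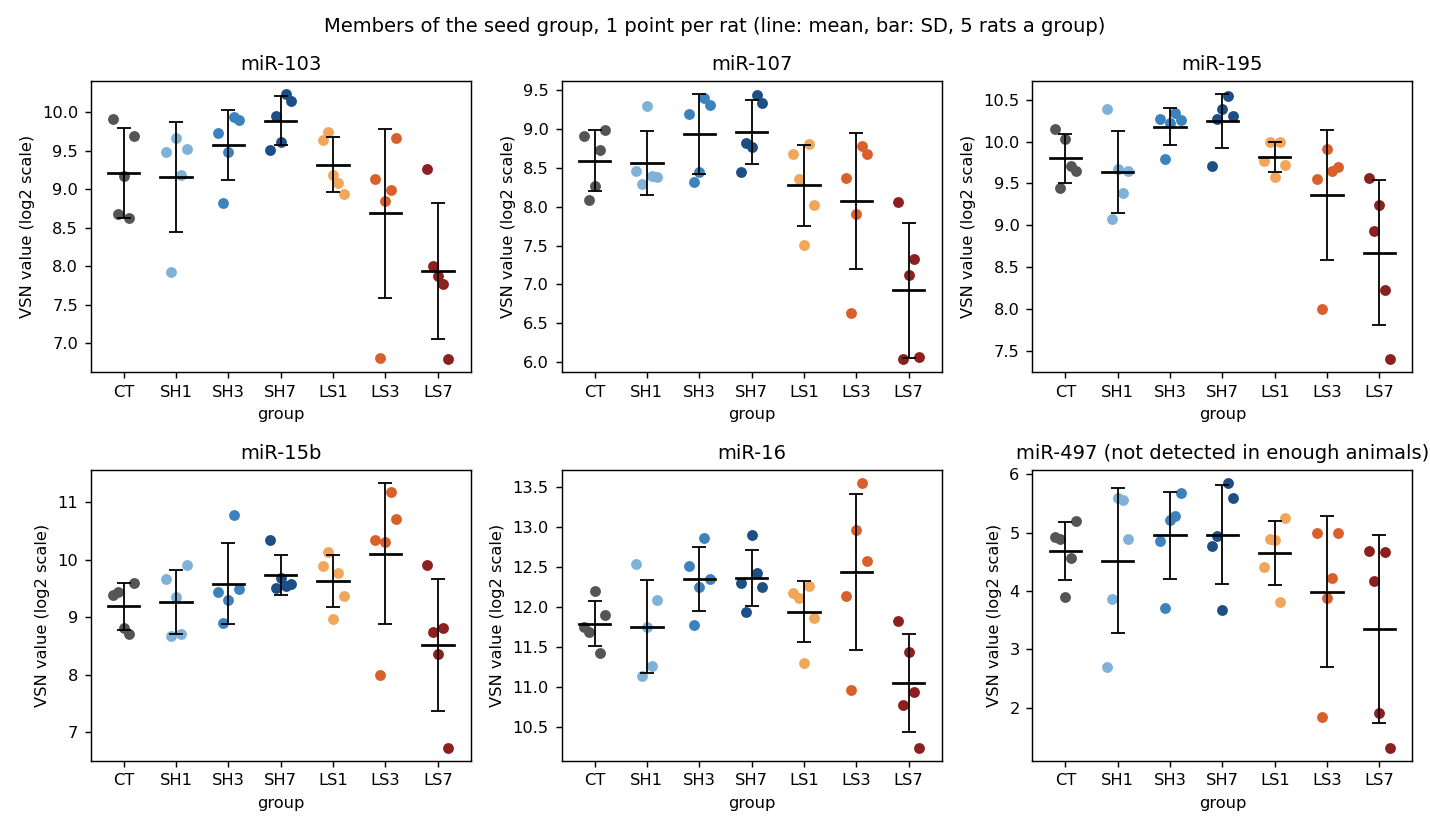
VSN value of each member (log2 scale) in each of the 35 rats by group, with the group mean (line) and SD (bar). The LS7 points of miR-103, miR-107, miR-195 and miR-16 lie below all SH7 points on this scale, a direction that turned for all but miR-103 under another scaling, and LS3 replicate 2 is the lowest LS3 point in every panel.

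Against unoperated rats, 3 of the 5 members were called lower in LS7, beside 50.9 percent of all names. miR-107 changed by -1.67 ± 0.41 (limma, adjusted p = 0.00503), miR-103 by -1.28 ± 0.43 (0.0221) and miR-195 by -1.12 ± 0.40 (0.0279). miR-16 (-0.75 ± 0.35, adjusted p = 0.0851) and miR-15b (-0.68 ± 0.47, adjusted p = 0.243) did not pass. Measured from the median change of -0.85 of the detected names, miR-15b (0.17) and miR-16 (0.10) lay above it and miR-107 (-0.82) furthest below it, but with the deposited values miR-15b (-0.07) and miR-16 (-0.23), and at an equal 75th percentile miR-15b (-0.24) and miR-16 (-0.45), lay below that scaling's median. Against the median of -1.30 of the 199 names only miR-107 (-0.37) lay below, and miR-103 (0.03), miR-195 (0.18), miR-16 (0.56) and miR-15b (0.63) lay above. With the deposited values miR-195 was not called (adjusted p = 0.0558 by limma). With the 75th percentile set equal the only member called was miR-15b, and it was higher in LS7 (0.87 ± 0.31, adjusted p = 0.03 by limma). The 3 calls became 1 without CT replicate 1 (44.5 percent of all names called lower) or without LS7 replicate 5 (43.5 percent), and 5 without LS7 replicate 1 (57.3 percent).

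The change from sham differed between days 7 and 1 for all 5 members in the interaction test over the 35 arrays (limma, adjusted p between 0.00326 and 0.036), as it did downward for 56.1 percent of all names. The difference was -2.11 ± 0.59 in miR-103, -1.74 ± 0.53 in miR-107, -1.74 ± 0.47 in miR-195, -1.59 ± 0.65 in miR-15b and -1.50 ± 0.50 in miR-16, beside a median of -1.25 over the detected names and of -1.74 over the 199 names. These calls rested on the scaling: 1 was made with the deposited values and 0 with normexp, at an equal 75th percentile or with scan day as a block, and the direction of miR-107, miR-15b, miR-16 and miR-195 turned at the 75th percentile. No member was called between days 7 and 3 by limma (0 of 5, beside 3.34 percent of all names, and 3 of 5 at an unadjusted p under 0.05, beside 30.6 percent) or between days 3 and 1 (0 of 5, beside 0 percent, and 1 of 5 unadjusted, beside 11.5 percent), and without LS3 replicate 2 all 5 were called between days 7 and 3, as were 42.6 percent of all names. Along the injured groups themselves, LS7 was lower than LS1 in 5 of 5 members, beside 61.5 percent of all names. The changes ran from -1.38 to -0.90 around a median of -1.13 over the detected names and of -1.35 over the 199 names, and 0 of the 5 calls remained under each of the other 3 scalings. At an equal 75th percentile the direction of all 5 turned, from 0.29 in miR-103 to 0.58 in miR-16. After normexp and quantile normalization that of all but miR-107 turned.

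**Figure D2:**
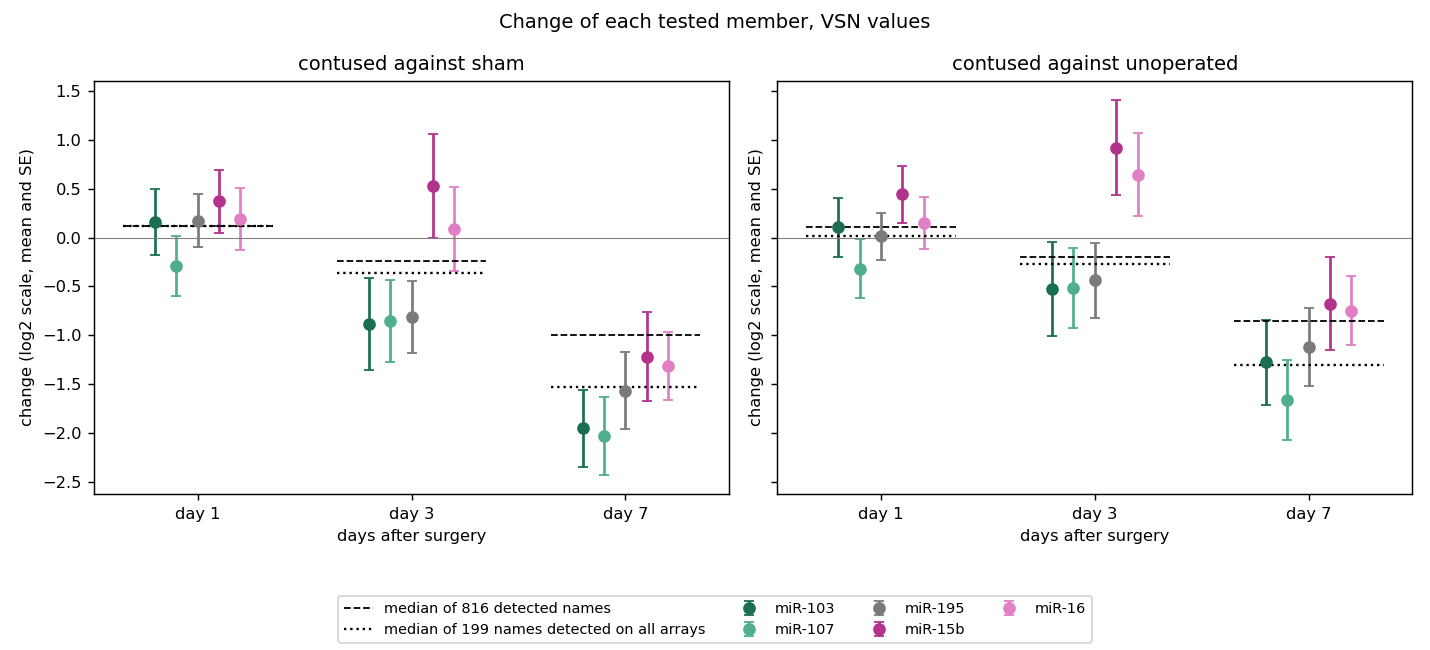
Change of each tested member (points, log2 scale, with SE) in contused rats against sham rats (left) and against unoperated rats (right) at 1, 3 and 7 days, beside the median change of the 816 detected names (dashed) and of the 199 names detected on all arrays (dotted). At day 3 miR-15b and miR-16 lie above both medians and miR-103, miR-107 and miR-195 below, and at day 7 all 5 lie below 0 on this scale but not under every other scaling.

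**Figure D3:**
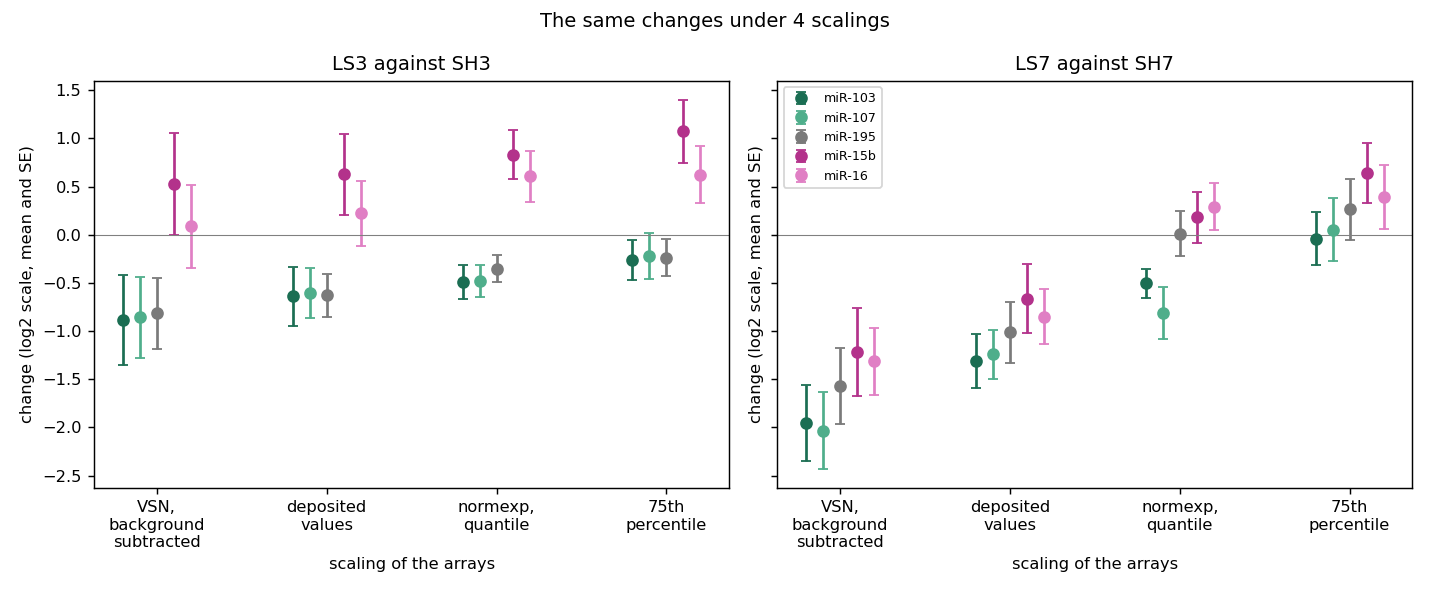
Change of each tested member (log2 scale, with SE) in LS3 against SH3 (left) and LS7 against SH7 (right) under 4 scalings of the same arrays. The height of the 5 points moves with the scaling, at day 7 across 0 for miR-107, miR-195, miR-15b and miR-16. In each scaling miR-15b and miR-16 stay above miR-103, miR-107 and miR-195, an order that depends little on how whole arrays are scaled.

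At day 3 the members went apart. miR-103, miR-107 and miR-195 had lower mean values in LS3 than in SH3 and miR-15b and miR-16 higher ones under all 4 scalings, although none of these changes passed the test by itself. For miR-15b the SH3 values were 9.45, 8.90, 9.30, 10.78 and 9.49, and the LS3 values were 10.35, 8.01, 10.31, 11.18 and 10.71. LS3 replicate 4 was the highest of the series and LS3 replicate 2 was lower than every SH3 rat, so that the groups overlapped. Its change was 0.53 ± 0.53 (limma, adjusted p = 0.693), and those of miR-16 (0.09 ± 0.43), miR-195 (-0.81 ± 0.37), miR-107 (-0.86 ± 0.42) and miR-103 (-0.88 ± 0.47) also failed, with adjusted p between 0.238 and 0.908. The direction of miR-16 turned without LS3 replicate 3, LS3 replicate 4 or SH3 replicate 2, the lowest value being -0.19. The count was 0 of 5, beside 5.15 percent of all names, with 1 member, miR-195, at an unadjusted p under 0.05, beside 19.3 percent. On the 1 scan day that held both groups, 1 rat of each, miR-15b was 1.73 higher and miR-16 was 1.03 higher in LS3, and miR-103 changed by -0.74. The LS3 rat of that day was replicate 4, the one with the highest miR-15b of the series.

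Against unoperated rats the order was the same. In CT miR-15b measured 9.38, 9.45, 8.81, 8.70 and 9.60, below 4 of the 5 LS3 rats, with a change of 0.92 ± 0.49 (limma, adjusted p = 0.414). miR-16 measured 11.75, 11.68, 12.20, 11.43 and 11.89 in CT and 12.14, 10.96, 12.96, 13.55 and 12.58 in LS3, a change of 0.65 ± 0.42 (adjusted p = 0.561). No member was called by limma (0 of 5, beside 0.278 percent of all names), nor had any an unadjusted p under 0.05, beside 14.5 percent. LS3 replicate 2 decided this count. Without it miR-15b was 1.45 higher (adjusted p = 0.00525) and miR-16 was 1.01 higher (adjusted p = 0.0394), and both were called, beside 10.7 percent of all names. miR-15b was also called with all 10 rats after normexp and quantile normalization (1.04 ± 0.20, adjusted p = 0.00737) and at an equal 75th percentile (1.16 ± 0.28, adjusted p = 0.0323). With the deposited values it was not called (0.87 ± 0.38, adjusted p = 0.215 by limma). Shares of all names called under these scalings are not given here. Relative to the array median, which takes out the dimness of a whole array, miR-15b stood at 0.42, -0.10, 0.57, 1.17 and 0.52 in LS3 and at -0.52, -0.39, -0.70, -1.11 and -0.47 in CT. No LS3 rat overlapped with CT on that measure, as in 5.56 percent of all names.

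Differences between members within 1 array leave the scaling of the arrays mostly aside, and 10 pairs of the 5 members were compared, as a description. In LS3 the difference of miR-15b minus miR-103 was 1.22, 1.20, 1.46, 2.18 and 1.05. In SH3 it was -0.29, 0.08, -0.18, 0.84 and -0.41, in CT -0.53, 0.77, -0.36, 0.08 and -0.09, and in LS1 0.25, 0.39, -0.21, 0.69 and 0.44. Every LS3 rat, the dim replicate 2 included, lay above every rat of these 3 groups under each of the 4 scalings. The means differed by 1.41 from SH3, 1.45 from CT and 1.11 from LS1. The share of all other names that rose over miR-103 without overlap was 12.1 percent against SH3, 4.6 percent against CT and 5.99 percent against LS1.

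The difference of miR-195 minus miR-16, the pair that is alike in 19 of 21 bases, moved the other way. It was -2.58, -2.96, -3.05, -3.90 and -2.88 in LS3 and between -2.51 and -1.99 in SH3, -2.25 and -1.59 in CT, and -2.41 and -1.72 in LS1. The LS3 rats lay below all rats of the 3 groups, as 6.13, 14.3 and 15.6 percent of all names did against miR-16, but after normexp and quantile normalization they overlapped with SH3 and LS1. On the VSN scale these were the 2 of the 10 pairs without overlap between LS3 and SH3, and 4 pairs did not overlap between LS3 and CT (3 with the deposited values or the 75th percentile). The other 2 of these 4 nearly touched. miR-15b minus miR-107 was at least 1.368 in LS3 and at most 1.363 in CT, where 6.13 percent of all names rose over miR-107 without overlap. miR-195 minus miR-15b was at most -0.005 in LS3 and at least -0.001 in CT, and no share is given for it. miR-15b and miR-16, 146 bases apart in the genome, kept a difference whose mean changed by -0.44 from SH3 to LS3, and miR-107 minus miR-103 changed by 0.03, both with overlap. In LS7 against SH7 all 10 pairs overlapped, while 27.9 percent of all names rose over miR-103 without overlap. The difference of miR-15b minus miR-103 was 0.65, 0.74, 0.49, 1.06 and -0.06 in LS7 and 0.84, -0.44, 0.07, -0.69 and -0.57 in SH7. Across all 35 rats the difference between 2 members varied least for miR-195 minus miR-103 (SD 0.38) and most for miR-15b minus miR-107 (SD 0.74).

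**Figure D4:**
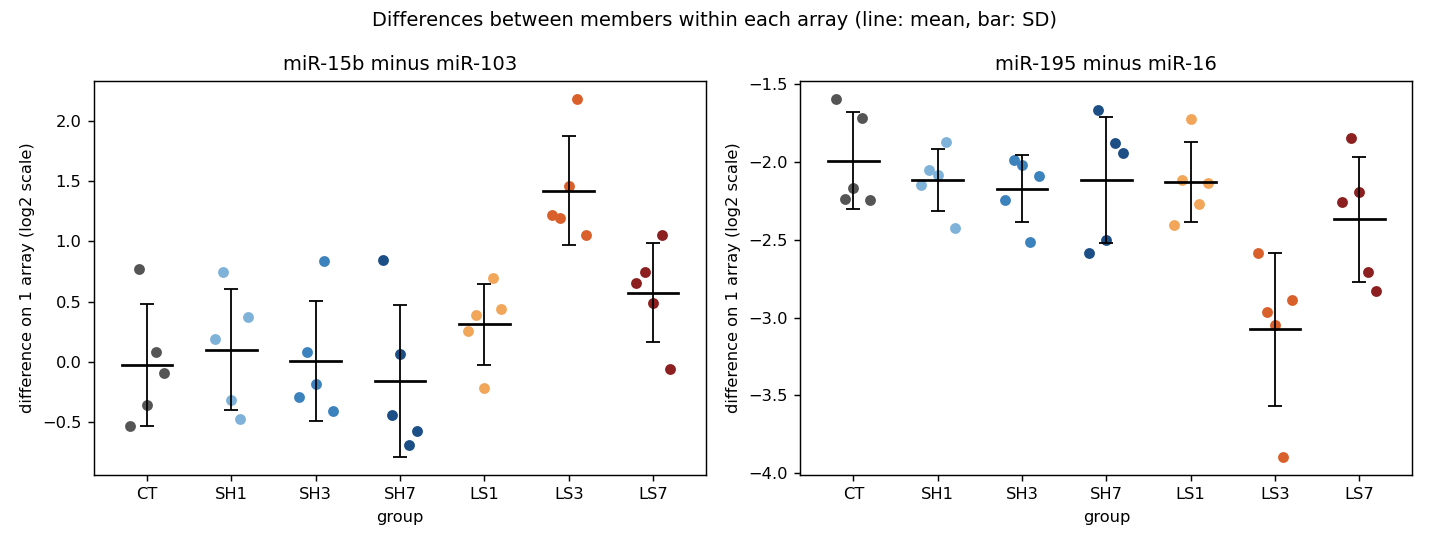
Difference between 2 members on the same array (log2 scale) in each rat by group, with the mean (line) and SD (bar), for miR-15b minus miR-103 (left) and miR-195 minus miR-16 (right). All 5 LS3 rats lie above SH3, CT and LS1 on the left and below them on the right, and LS7 overlaps with SH7 in both.

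Markers of blood cells were read beside miR-15b, relative to the array median. The summed level of the myeloid microRNAs miR-223, miR-142-3p and miR-142-5p was between 2.65 and 3.38 in LS3, 0.965 and 3.00 in SH3, and -0.06 and 1.36 in CT, with all 3 detected in every rat. In the sham groups the rat with the highest miR-15b relative to the array median also had the highest myeloid sum at day 3 (SH3 replicate 4, 0.59 and 3.00) and day 7 (SH7 replicate 1, 0.36 and 2.76), but not at day 1. The same rats also had the highest erythrocyte sums of their groups, 5.34 and 4.57. The erythrocyte microRNAs miR-451, miR-144 and miR-486 summed to between 4.30 and 5.54 in LS3, 2.34 and 5.34 in SH3, and 2.41 and 3.98 in CT. In LS7 the erythrocyte sum was 1.84 to 3.27, with miR-486 detected in 0 of 5 rats, the myeloid sum was 2.43 to 2.98 and miR-15b stood between -0.70 and 0.29. The neuronal sum was lower in LS3 (2.90 to 3.76) than in SH3 (4.02 to 5.18) and CT (4.27 to 5.03). In LS7 the neuronal sum (3.50 to 4.13) and the oligodendrocyte sum (1.79 to 2.97) both lay below SH7 (4.25 to 5.16 and 3.14 to 4.19) without overlap. The oligodendrocyte sum was 2.56 to 3.32 in LS3 and 3.03 to 3.78 in SH3, with overlap. The part of these cells in the changes of the members was not tested.

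**Figure D5:**
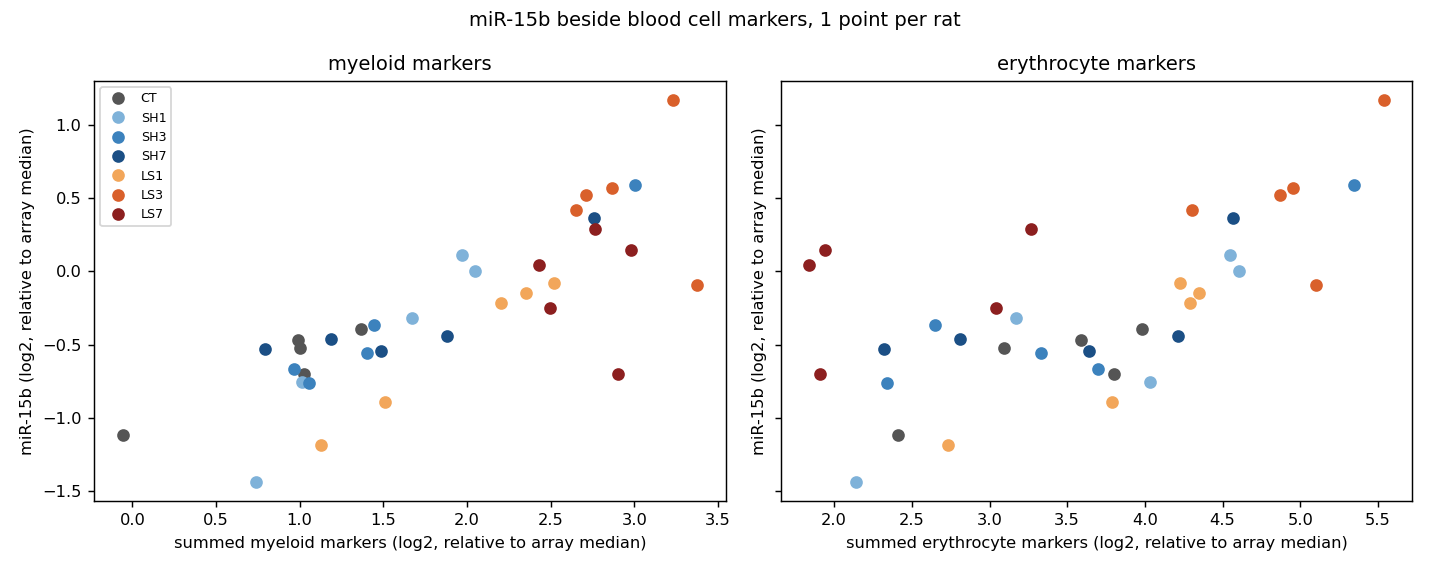
miR-15b against the summed myeloid markers (left) and erythrocyte markers (right) in each of the 35 rats, all relative to the array median (log2 scale), coloured by group. LS3 rats have myeloid sums of 2.65 or more, and SH3 replicate 4 and SH7 replicate 1 lie among the injured rats on the left.

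At day 1 no member was called. In LS1 the mean values were 9.32 ± 0.35 for miR-103, 8.27 ± 0.52 for miR-107, 9.63 ± 0.46 for miR-15b, 11.94 ± 0.39 for miR-16 and 9.81 ± 0.18 for miR-195 (SD, n = 5). In SH1 they were 9.16 ± 0.71, 8.56 ± 0.41, 9.26 ± 0.56, 11.75 ± 0.58 and 9.64 ± 0.48 in the same order. By limma 0 of 5 members were called against SH1 and 0 of 5 against CT, beside 0 and 7.51 percent of all names. At an unadjusted p under 0.05 the counts were also 0 of 5, beside 9.87 and 22 percent. miR-107 had a lower mean in LS1 than in SH1 and CT, with changes of -0.29 ± 0.31 and -0.32 ± 0.30.

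Laminectomy alone was not followed by a call. Comparing the unoperated and sham groups with each other in 6 pairs, none of 30 tests passed (limma, lowest adjusted p = 0.314), and 0 percent of all names were called in each pair. An unadjusted p under 0.05 was seen in 4 of the 30, beside 0.834, 5.01, 11.5, 4.59, 15.3 and 1.67 percent of all names in the 6 pairs. The mean of each of the 5 members was higher in SH7 than in CT, from 0.37 in miR-107 to 0.68 in miR-103, beside a median of 0.13 over the detected names and of 0.31 over the 199 names. LS3 was not separated from LS1 or LS7 in any member by limma (0 of 5 each, beside 3.89 and 0.834 percent of all names). At an unadjusted p under 0.05 the counts were 0 and 3, beside 27.7 and 28.4 percent. Without LS3 replicate 2, 1 member was called in LS3 against LS1 and 4 in LS7 against LS3, beside 12 and 47.3 percent of all names.

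miR-497, the partner of miR-195 on chromosome 10, stayed near the limit of the array. It was detected in 10 of 35 rats, 2 in each of CT, SH1, SH3, SH7 and LS1 and none in LS3 and LS7. Its background-subtracted signal was between 23.0 and 118.5 units, while the detection limit was 24.3 to 325.5 units over all arrays and 70.3 or more in LS7. No change was tested.

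Other probes of the seed group were read beside the members. Of 7 further guide-strand names 5 were detected and 4 were tested, and in LS7 against SH7 2 of the 4 were called lower, beside the 58.4 percent of all names: the probe named for human miR-107 (-1.81 ± 0.36, limma, adjusted p = 0.000853) and that for human and mouse miR-15a (-1.33 ± 0.40, adjusted p = 0.00924). Human miR-424 (-0.78 ± 0.39, adjusted p = 0.0913) and miR-503 (-0.76 ± 0.42, adjusted p = 0.123), whose seed in RefSeq is AGCAGCG, did not pass, and miR-322 varied too little to be tested. The human miR-107 probe gave changes close to those of the rat probe in LS3 against SH3 (-0.88 and -0.86), and none of the 4 was called against sham at day 3 or day 1. The miR-15a probe changed by -0.15 ± 0.42 in LS3 against SH3 (limma, adjusted p = 0.852), where the means of miR-15b and miR-16 were higher. In LS3 against CT it changed by 0.41 ± 0.38 (limma, adjusted p = 0.686). Of 11 passenger strands 4 were detected, and of these human miR-195* (-0.99 ± 0.34, adjusted p = 0.0173) and mouse miR-503* (-1.03 ± 0.38, adjusted p = 0.0246) were called lower in LS7 against SH7, 2 of 4 beside the same 58.4 percent, whereas miR-15b* (0.54 ± 0.36, adjusted p = 0.208) and mouse miR-16* (-0.21 ± 0.30, adjusted p = 0.554) were not. miR-503* was detected on 35 arrays, but miR-16* on 19, miR-15b* on 14 and miR-195* on 6. The miR-195* means, 4.56 in SH7 and 3.57 in LS7, thus lay near the limit of the arrays.

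The names other than the 6 members whose values relative to the array median were most like those of each member over the 35 rats differed from member to member. For miR-15b they were miR-106b (Pearson's r = 0.85), human miR-18a (0.84) and miR-17 (0.82), and for miR-16 mouse miR-106a (0.88), miR-20a (0.78) and miR-17 (0.75), all of the miR-17 cluster or its paralogues, which are known to promote cell division. For miR-103 they were miR-181b (0.85), miR-98 (0.85) and miR-135a (0.83). Those of miR-107 were miR-9* (0.81), miR-29b (0.80) and the human miR-107 probe (0.79). miR-195 was closest to the endothelial miR-126 (0.80), miR-125b (0.78) and miR-26a (0.77). The median r of all detected names with a member was between -0.13 and 0.12. These r values describe likeness over rats of 7 groups that share arrays, and were not tested.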

How the data were processed

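The authors deposited scanner tables of 35 arrays, of which the green raw spot intensity (532 nm) was used, and a table of log2 values that they had normalized with VSN. The spot flags in the deposited scanner tables are score values, used to leave out spots flagged -100. The second (red) channel was not used. From the intensity, local background was subtracted, VSN was applied across arrays in a Python version tested on simulated data, and replicate spots were summarised by their median. A name was detected in a group if in 3 or more of 5 rats a share over 0.5 of its spots lay above a limit, set at the negative controls' mean (28 spots) plus 2 SD (816 names), and tested when its interquartile range was over 0.5 (719 names). Comparisons used limma 3.58.1 (R 4.3.3) with Benjamini-Hochberg adjustment over all 719 names at 0.05, and interaction contrasts over the 7 groups for the injury effect. The labels do not say what the replicate numbers share. Each rat was read on 1 array, so the spread behind the p-values holds differences between arrays and scan days as well as between rats. Tables and plots were made with Python 3.11.15, numpy 2.4.6, pandas 2.3.3, scipy 1.17.1 and matplotlib 3.10.9. The number of arrays limits the precision. Arrays were scanned on 13 days, at most 4 a day. LS1 shared 0 scan days with SH1 and 0 with LS3, and LS7 shared 1 with SH7. The deposited log2 table followed the order of the scanner values on 33 of 35 arrays, and LS7 replicate 4 and SH7 replicate 1 differed. Alternatives were the deposited values, normexp with quantile normalization, 75th percentile scaling, filters, scan day or replicate number as a block, and leaving out each rat. The text names all members, their seed group and passenger strands, and the 3 names most like each member. Members and lists were chosen with earlier results of these data known.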

Additional observations from a re-analysis of the deposited data

Results flagged for a closer look

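Of 35 tests of a single rat against the other 4 of its group (5 members in 7 groups), 7 set a rat apart, where chance sets apart about 1 in 20 independent tests. The members were read on the same arrays, so these tests are not independent and the 7 cannot be weighed against that rate. LS3 replicate 2, set apart in more than 1 member, was dim as a whole array (array median 8.10). LS3 replicate 2 was low in miR-103 (6.81, the nearest rat at 8.85), miR-15b (8.01, nearest 10.31) and miR-195 (8.0, nearest 9.56). SH1 replicate 2 was low in miR-103 (7.93, nearest 9.19), and SH3 replicate 2 was low in miR-195 (9.79, nearest 10.22). SH1 replicate 3 was high in miR-107 (9.29, nearest 8.45), and SH7 replicate 1 was high in miR-15b (10.35, nearest 9.68).

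The change from sham differed between day 7 and day 1 in the interaction test (limma, adjusted over all 719 names) for miR-103 (-2.11, adjusted p = 0.00383), miR-107 (-1.74, 0.00655), miR-195 (-1.74, 0.00326), miR-16 (-1.50, 0.0118) and miR-15b (-1.59, 0.036). In the same test 56.1 percent of all names were called lower. With the deposited values 1 of the members was called and with normexp, the 75th percentile or scan day as a block 0, and miR-107, miR-15b, miR-16 and miR-195 turned at the 75th percentile.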

How the results depend on the processing

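The counts of called members at day 7 depended on the scaling. In LS7 against SH7 the 5 calls became 4 with the deposited values, 2 after normexp and quantile normalization, 0 at an equal 75th percentile and 3 with scan day as a block in 1 fit of all 7 groups, an alternative chosen after seeing the data. In LS7 against CT the 3 calls became 2 with the deposited values, 0 with normexp, 1 (in the other direction) at the 75th percentile and 1 with scan day as a block. In LS7 against LS1 the 5 calls became 0 with the deposited values, normexp, the 75th percentile and either scan day block, and 2 without both arrays that differ from the deposited table, also chosen after seeing the data. The injury effect of day 7 against day 1 had 1 call in place of 5 with the deposited values and 0 with normexp, the 75th percentile or scan day as a block. LS3 against CT had 1 call with normexp and 1 at the 75th percentile, and LS7 against LS3 had 3 with all 7 groups in 1 fit. The cause was not tested. Shares of all names called under these settings, or with the replicate number as a block, are not given here. These counts can therefore not be read against the rate over all names.

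Directions turned as follows. In LS7 against SH7 the 75th percentile gave 0.051 for miR-107, 0.64 for miR-15b, 0.39 for miR-16 and 0.26 for miR-195, and normexp gave 0.18, 0.29 and 0.012 for the last 3. In LS7 against CT the 75th percentile gave 0.31 for miR-103, 0.092 for miR-107, 0.87 for miR-15b, 0.66 for miR-16 and 0.40 for miR-195, and normexp gave 0.40, 0.53 and 0.16 for the last 3. In LS7 against LS1 the 75th percentile gave 0.29 for miR-103, 0.49 for miR-107, 0.51 for miR-15b, 0.58 for miR-16 and 0.46 for miR-195. There normexp gave 0.10 for miR-103, 0.37 for miR-15b, 0.46 for miR-16 and 0.49 for miR-195. In the injury effect of day 7 against day 1 the 75th percentile gave 0.42 for miR-107, 0.35 for miR-15b, 0.27 for miR-16 and 0.17 for miR-195, and normexp gave 0.17, 0.078 and 0.16 for the last 3. Measured from the median of the detected names, normexp turned miR-15b (0.36), miR-16 (0.46) and miR-195 (0.19) in LS7 against SH7 and miR-103 (0.043) and miR-195 (0.35) in LS7 against CT, where miR-15b and miR-16 turned with the deposited values (-0.07 and -0.23) and at the 75th percentile (-0.24 and -0.45).

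Leaving out 1 rat at a time gave 4 to 5 calls in LS7 against SH7, 1 to 5 in LS7 against CT, 2 to 5 in LS7 against LS1, 0 to 2 in LS3 against CT, 0 to 1 in LS3 against LS1, 0 to 4 in LS7 against LS3, 4 to 5 for day 7 against day 1 and 0 to 5 for day 7 against day 3. Of all names, 53.1 to 64.5, 40.2 to 57.3 and 53.5 to 67.6 percent were called lower in the first 3. In the next 3, 0.278 to 10.7, 0.417 to 12 and 0.139 to 47.3 percent were called in either direction. For day 7 against day 1 it was 48.7 to 62.6 percent lower, and for day 7 against day 3 0 to 42.6 percent in either direction. miR-16 in LS3 against SH3 ran from -0.19 to 0.46, and was below 0 without LS3 replicate 3 (-0.04), LS3 replicate 4 (-0.19) or SH3 replicate 2 (-0.05). All other counts stayed within 1.5 times.

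With the replicate number as a block, LS3 against SH3 had 1 call and LS7 against LS1 had 4. The correlations between deviations of same-numbered rats ran from -0.04 to 0.66 in LS3 against SH3. They were above 0 for every number in LS3 against CT (0.04 to 0.64) and SH1 against CT (0.04 to 0.32). In SH7 against SH1 they were below 0 for every number (-0.43 to -0.07). As the labels do not say what the numbers share, they were not taken as a pairing.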
